A study of Mus musculus with 8 samples.

Results

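The clustered histone genes were taken as the protein-coding genes whose symbols begin with Hist1h, Hist2h, Hist3h or Hist4h in GENCODE mouse release 21, on genome build GRCm38. There were 67 such genes, and 65 of them had a row in the table of 46517 genes. *Hist1h2bm* and *Hist1h2bh* had no row. Of the 65 genes, 52 belonged to Hist1, 10 to Hist2, 2 to Hist3 and 1 to Hist4.

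These genes encode the linker histone H1 and the core histones H2A, H2B, H3 and H4, which package DNA into chromatin. Most of them are transcribed in S phase, when newly copied DNA needs histones, and their mRNAs are the known exception among animal mRNAs: they end in a short stem-loop, bound by the stem-loop binding protein SLBP, in place of a poly(A) tail. Some of them also make longer, polyadenylated mRNAs, above all in cells that have left the cell cycle and are differentiating. TruSeq mRNA libraries, the kind made here, select poly(A) tails and so capture mainly this longer form.

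The cells were osteoclasts, the multinucleated cells that resorb bone, from 4 Elmo1-/- and 4 Elmo1+/- mice aged 6 to 8 weeks, with 1 library per mouse. ELMO1 is a cytoplasmic adaptor that acts with DOCK proteins to activate the GTPase RAC. In the Elmo1-/- mice the gene was disrupted in all tissues, and the controls carried 1 disrupted allele as well; their titles call them WT, while their genotype label reads Elmo1+/-. Bone marrow cells of both genotypes were given 10% medium conditioned by L929 cells, a source of M-CSF, and were kept for 7 days in GST-RANKL at 50 ng/ml; the labels name both in 1 step, while the study's methods place a culture in the L929 medium before the GST-RANKL. The methods speak of 2 experiments, each with 2 mice of either genotype, and do not assign the mice.

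The libraries held between 20905502 and 40846651 reads on genes. *Elmo1* lay between 274 and 316 normalized counts in the Elmo1-/- mice and between 1423 and 1769 in the Elmo1+/- mice, as their labels say. The first principal component, with 62.31% of the variance, separated the libraries numbered 1 and 2 from those numbered 3 and 4 in both genotypes. Elmo1-/- mouse 2 lay between the rest, at 6.03 on this component. The others numbered 1 and 2 lay at 23.1 to 52.3, and those numbered 3 and 4 at -31.9 to -24.65. Values within each of these sets are given below. The osteoclast genes *Acp5*, *Ctsk*, *Mmp9* and 7 others were read in all libraries, with summed levels of 450909 to 1173010 normalized counts. Genes of erythroid cells were near 0, at 0 to 14.2 summed, while those of macrophages summed to 327219 to 412767 and those of neutrophils and their precursors to 9250 to 19058. Most of the neutrophil sum was *S100a8*, at 8539 to 17708. The next highest, *Ngp*, lay at 164 to 964, and the lowest, *Elane*, at 1.52 to 34.3.

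The sequences below show the end that a replication-dependent histone mRNA normally has. A stem of 6 bases on each side of a loop of 4 was searched for after the stop codon of every annotated transcript. The stem had to open with GG and close with CC, with at most 1 mismatch, and the loop had to open with TT. Such a stem-loop was found in 44 of the 67 genes. The 23 genes without one had a median of 0 annotated bases after the stop codon. Where no such sequence is annotated, the search could find nothing. The 16 bases of the stem-loop are in capitals, written as DNA on the transcript's strand, with 5 bases on each side.

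*Hist1h1c*: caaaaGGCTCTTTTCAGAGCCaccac

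*Hist2h3c2*: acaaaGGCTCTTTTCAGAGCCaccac

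*Hist3h2a*: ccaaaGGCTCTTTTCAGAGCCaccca

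*Hist1h4h*: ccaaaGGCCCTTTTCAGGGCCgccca

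*Hist1h4i*: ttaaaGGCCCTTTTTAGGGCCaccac

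The 44 genes held 6 different stem-loops. The form in *Hist1h1c* stood in 26 genes of the H1, H2A, H2B and H3 families and in no H4 gene, while that in *Hist1h4h* stood in 7 genes, all of them H4 genes. The form in *Hist1h4i* was found in 2 genes, also both H4. In these 5 genes the annotated transcript does not stop there: it runs on for 840 bases in *Hist1h1c*, 377 in *Hist2h3c2*, 1643 in *Hist3h2a*, 330 in *Hist1h4i* and 46 in *Hist1h4h*. No stem-loop was found in *Hist1h2bc*, whose annotated transcript *Hist1h2bc-201* has 2 exons, or in *Hist2h2be*, which has 2192 annotated bases after its stop codon.

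Few of the histone genes were read at more than a trace. A minimum of 10 normalized counts, reached by 4 libraries or more, was passed by 10 of the 65 genes. These were *Hist1h1c*, *Hist1h1d*, *Hist1h2bc*, *Hist1h2be*, *Hist1h2bg*, *Hist1h4h* and *Hist1h4i* of Hist1, *Hist2h2be* and *Hist2h3c2* of Hist2, and *Hist3h2a* of Hist3. A normalized count is the number of reads on a gene divided by the size factor of its library, and 1 read was worth between 0.778 and 1.52 of these units. Another 44 genes had at least 1 read in some library, and 11 had none. Of all 46517 genes in the table, 14139 passed the minimum and 24638 had at least 1 read. All members together took 1940 to 5428 reads per library, or 0.00744% to 0.0148% of the reads on genes. The 10 genes above the minimum held all but 640 of the 31279 reads on histone genes.

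By family, 2 of 6 H1 genes, 1 of 18 H2A genes, 4 of 16 H2B genes, 1 of 12 H3 genes and 2 of 13 H4 genes passed the minimum. By cluster, 7 of 52 Hist1 genes passed, or 13.5%, against 3 of the 13 others, or 23.1%. *Hist4h4*, the single Hist4 gene, had 10 reads over 6 libraries. The genes with no read were *Hist1h2aa*, *Hist1h2af*, *Hist1h2ag*, *Hist1h2ai*, *Hist1h2ap*, *Hist1h2br*, *Hist2h2aa1*, *Hist2h2aa2*, *Hist2h2bb*, *Hist2h3b* and *Hist2h3c1*. A count of 0 in a library allows up to 3 reads there, by counting error alone. Requiring a read in every library left 17 genes, and a minimum of 50 left 6.

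Most genes that passed had long annotated ends. Of the 30 genes with at least 100 annotated bases after the stop codon, 9 passed, against 1 of the 35 with fewer; that gene was *Hist1h4h*, with 93 bases. A poly(A) signal (AATAAA or ATTAAA) stood in the last 50 bases of a transcript of 17 genes, of which 6 passed, and 4 passed of the 48 without one. *Hist1h4h* was 1 of the 17. The median length after the stop codon was 811 bases in the 10 genes that passed, 87 in the 44 that were read but did not, and 57 in the 11 with no read. A gene was read across its whole annotated exons, so a longer end also offers more bases to be read from; per kilobase of exon, as RPKM (reads scaled to exon length and to the library's reads on genes), the median level was 0.102 in the 30 genes and 0.0441 in the 35.

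Genes that share most of their sequence with others were read least. Many histone genes have near-identical copies in the same family, and a 75-base read that fits more than 1 gene may not be counted for any, while 5 of the 65 genes shared no such stretch and 47 shared less than 75%. At least 75% of the 75-base stretches of 18 genes occur in the transcripts of another gene, and none of these 18 passed. They included 10 of the 11 genes with no read, the exception being *Hist1h2aa*, which shares 17.4%. In 5 genes every stretch was shared, and all 5 had no read. Of the 18 genes, 13 had fewer than 100 annotated bases after the stop codon, so sharing and short annotated ends were not separated. The measure takes each read alone, while the reads were paired. Among the genes that passed, the share ran from 0% in *Hist2h2be* and 1.47% in *Hist1h1d* to 62.6% in *Hist2h3c2*, so the level of *Hist2h3c2* is uncertain, since reads could be split with or lost to other copies. *Hist1h2be* overlaps *Hist1h1e* on the genome, and reads in the overlap could be counted for either or neither.

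**Figure D1:**
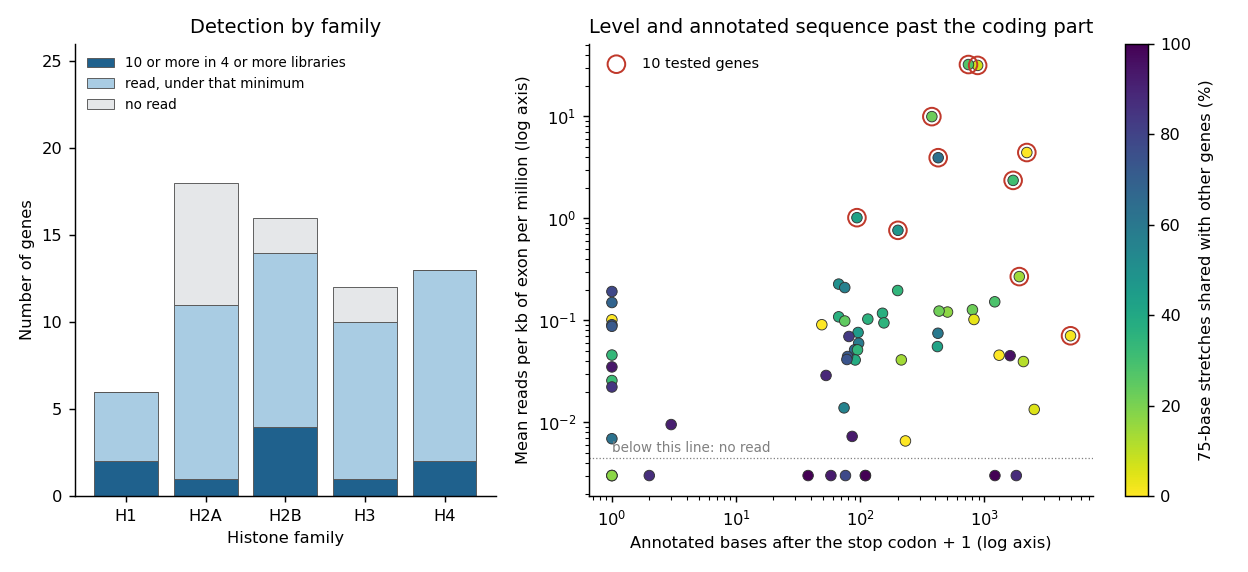
Left, the number of genes in each histone family that passed the minimum of 10 normalized counts in 4 libraries, that had reads but did not pass, and that had none. Right, for each of the 65 genes the mean level over 8 mice (RPKM, log axis, genes with no read placed below the dotted line) against the annotated bases after the stop codon plus 1 (log axis), coloured by the percent of 75-base stretches shared with other genes. The ringed genes are the 10 that passed, and 9 of them have at least 100 bases after the stop codon.

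Promoters of the members share sequence features with each other that the choice of genes did not use. Of the 67 genes, 62 were matched to a RefSeq promoter (GRCm38.p6, 250 bases before to 50 after the start), and *Hist1h2bc*, *Hist2h2be*, *Hist2h4*, *Hist1h3a* and *Hist1h3f* were not. The letters CCAAT, on either strand, occurred in 53 of the 62, or 85.48%, against 37.92% of all 27025 promoters. All matched H1, H2A, H2B and H3 promoters held them, and 3 of 12 H4 promoters did. The letters TATAAA occurred in 35, or 56.45%, against 14.16% of all promoters. The octamer ATTTGCAT occurred in 7 of 18 H2A and 6 of 16 H2B promoters and in no other family, against 1.754% of all promoters. These are matches of letters in a window, with no binding measured. The 120 bases before the start of 3 Hist1 genes are shown, with CCAAT (or ATTGG on the other strand) and TATAAA in capitals: the linker histone *Hist1h1c*, the H4 gene *Hist1h4i*, with neither in this stretch, and *Hist1h2ac*, which lies head to head with *Hist1h2bc* so that this stretch lies between the 2 genes' starts.

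*Hist1h1c*, chr13:23738687-23738806, plus strand: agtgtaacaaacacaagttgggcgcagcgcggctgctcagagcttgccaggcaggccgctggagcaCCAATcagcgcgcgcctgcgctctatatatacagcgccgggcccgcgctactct

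*Hist1h4i*, chr13:22041363-22041482, minus strand: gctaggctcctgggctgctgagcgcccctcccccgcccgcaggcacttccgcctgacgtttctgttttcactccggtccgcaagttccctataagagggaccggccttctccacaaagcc

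*Hist1h2ac*, chr13:23683960-23684079, minus strand: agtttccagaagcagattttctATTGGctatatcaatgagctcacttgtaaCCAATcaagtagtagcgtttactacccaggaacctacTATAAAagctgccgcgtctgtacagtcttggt

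The pair that shares the last of these stretches was read very unequally. *Hist1h2bc* had 9738 reads over the 8 libraries, while *Hist1h2ac*, which encodes an H2A and has 2058 annotated bases after its stop codon, had 24.

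Levels per kilobase of exon differed by orders of magnitude among the members. *Hist1h2bc*, which encodes an H2B, was highest with 32.3 ± 9.13 RPKM (SD, n = 8 mice), and *Hist1h1c*, which encodes a linker histone, was next with 31.6 ± 8.49. The 2 did not differ beyond their spread. Both lay near the 87th percentile of the 14139 genes that passed the minimum, whose median was 4.78. *Hist1h4i* stood at 9.95 ± 1.65. *Hist2h2be* with 4.42 ± 1.43 and *Hist2h3c2* with 3.93 ± 1.38 overlapped in range, and *Hist3h2a* stood at 2.36 ± 0.422. The other 4 lay at or below 1.02, the level of *Hist1h4h*, and *Hist1h1d* was lowest of the 10 at 0.0705 ± 0.037, since its 134 reads were spread over an annotated exon of 7425 bases. These are levels of the mRNA that such libraries capture, and not of all histone mRNA.

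The genotype comparison asked whether loss of *Elmo1* changes the level of these mRNAs in osteoclasts. No histone gene was called at an adjusted p of 0.05 with limma and Benjamini-Hochberg adjustment over the 14139 genes tested, in which 1 gene was called (0.00707%), *Elmo1*, and edgeR and DESeq2 on recovered reads called none of them either. All 10 tested histone genes had lower means on the log2 scale in the Elmo1-/- mice, where 51.6% of all genes tested did. Their median log2 fold change was -0.37, against -0.0031 over all genes. One of them, *Hist1h1c*, had an unadjusted p under 0.05, as did 0.941% of all genes. This fit held no term for the number sets, so differences between the sets count as spread within a genotype. The lack of calls therefore does not show equal levels, and a fit with the mouse number as a block is given below. In none of the 10 were the genotypes free of overlap, which held for 0.941% of all genes. The lowest of the 8 values was that of Elmo1-/- mouse 1 or 2 in all 10 genes, as the values by mouse show.

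*Hist1h1c* (ENSMUSG00000036181, chr13:23738808-23740367, a gene of 1 exon) stood at 1030.2, 892, 1764 and 1489 normalized counts in the 4 Elmo1-/- mice, in order of their numbers, and at 2188, 1661, 1879 and 1689 in the 4 Elmo1+/- mice. Elmo1-/- mice 1 and 2 were below all other mice, while Elmo1-/- mouse 3 lay among the Elmo1+/- mice. The log2 fold change was -0.56 (SE 0.21, limma unadjusted p = 0.0248, Benjamini-Hochberg adjusted p = 0.9999). The exact two-sided permutation test over the 70 arrangements of the mice gave p = 0.0857, where 0.0286 is the smallest it can give. The study's supplement lists *Hist1h1c* among osteoclast genes regulated by *Elmo1*, on the lower side in Elmo1-/-. That list used a ratio of group averages and not the tests given here.

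*Hist1h2bc* (chr13:23684199-23692908) stood at 791, 678, 1562 and 1219 in the Elmo1-/- mice and at 1248, 1071, 1565 and 1361 in the Elmo1+/- mice. The same 2 mice were lowest, and the other 6 overlapped. The log2 fold change was -0.37 (SE 0.25, exact permutation p = 0.257). It moved to -0.18 when Elmo1-/- mouse 2 was left out and to -0.58 when mouse 3 was.

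*Hist2h2be* (chr3:96221119-96223738), an H2B gene of the Hist2 cluster, stood at 184, 284, 405 and 435 in the Elmo1-/- mice and at 316, 337, 417 and 561 in the Elmo1+/- mice. All 4 mice numbered 3 and 4 were above all 4 numbered 1 and 2, whatever their genotype. The log2 fold change between genotypes was -0.36 (SE 0.29, exact permutation p = 0.343). Leaving out Elmo1-/- mouse 1 gave -0.11, and leaving out Elmo1+/- mouse 4 gave -0.19.

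*Hist1h4i* (chr13:22040636-22041362), an H4 gene, stood at 226, 164, 292 and 241 in the Elmo1-/- mice and at 221, 248, 253 and 199.9 in the Elmo1+/- mice. It was the gene with the least difference, and its genotype ranges overlapped throughout. The log2 fold change was -0.02 (SE 0.17, exact permutation p = 0.886), and its sign turned under several of the alternative settings.

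*Hist3h2a* (chr11:58954685-58956830), which encodes an H2A, stood at 129.6, 131, 169 and 148 in the Elmo1-/- mice and at 166, 148, 207 and 189 in the Elmo1+/- mice. Elmo1-/- mice 1 and 2 were again lowest, and mouse 3 of the same genotype lay within the range of the controls. The log2 fold change was -0.30 (SE 0.14, exact permutation p = 0.114).

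*Hist2h3c2* (chr3:96238108-96239127), which encodes an H3, stood at 57.7, 64.7, 168 and 142 in the Elmo1-/- mice and at 144, 119.6, 155 and 168 in the Elmo1+/- mice. Elmo1-/- mice 1 and 2 held less than any other mouse by a wide margin, and mice 3 and 4 fell within the range of the controls. The log2 fold change was -0.58 (SE 0.34, exact permutation p = 0.257), and it became -0.33 with Elmo1-/- mouse 1 left out and -0.39 with mouse 2 left out.

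The remaining 4 genes were read at low levels. *Hist1h1d*, a linker histone gene, stood at 0.946, 8.38, 19.2 and 15.6 in the Elmo1-/- mice, where the lowest value is 1 read, and at 20.2, 27.7, 25.9 and 15.2 in the Elmo1+/- mice. Its log2 fold change was -1.36 (SE 0.68, exact permutation p = 0.0857), and without Elmo1-/- mouse 1 it was -0.63. *Hist1h2bg*, an H2B gene, stood at 6.62, 5.99, 12.5 and 19.4 against 10.1, 25.7, 24.4 and 15.2, a log2 fold change of -0.76 (SE 0.43, exact permutation p = 0.143). *Hist1h2be*, also an H2B gene, had a log2 fold change of -0.37 (SE 0.24, exact permutation p = 0.171), with 20.8 to 43.4 in the Elmo1-/- and 36.6 to 51.8 in the Elmo1+/- mice. The H4 gene *Hist1h4h* ranged from 5.68 to 23.4 and from 12.9 to 19.8, a log2 fold change of -0.37 (SE 0.40, exact permutation p = 0.457). That of *Hist1h4h* became -0.04 with Elmo1-/- mouse 1 left out and -0.66 with mouse 3 left out, and that of *Hist1h2be* became -0.17 with mouse 1 left out. Tests on recovered reads gave smaller values for the lowest genes, with -0.96 in edgeR and -0.99 in DESeq2 for *Hist1h1d* and -0.18 and -0.20 for *Hist1h4h*. In each of these 4 genes the mice of the 2 genotypes overlapped.

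**Figure D2:**
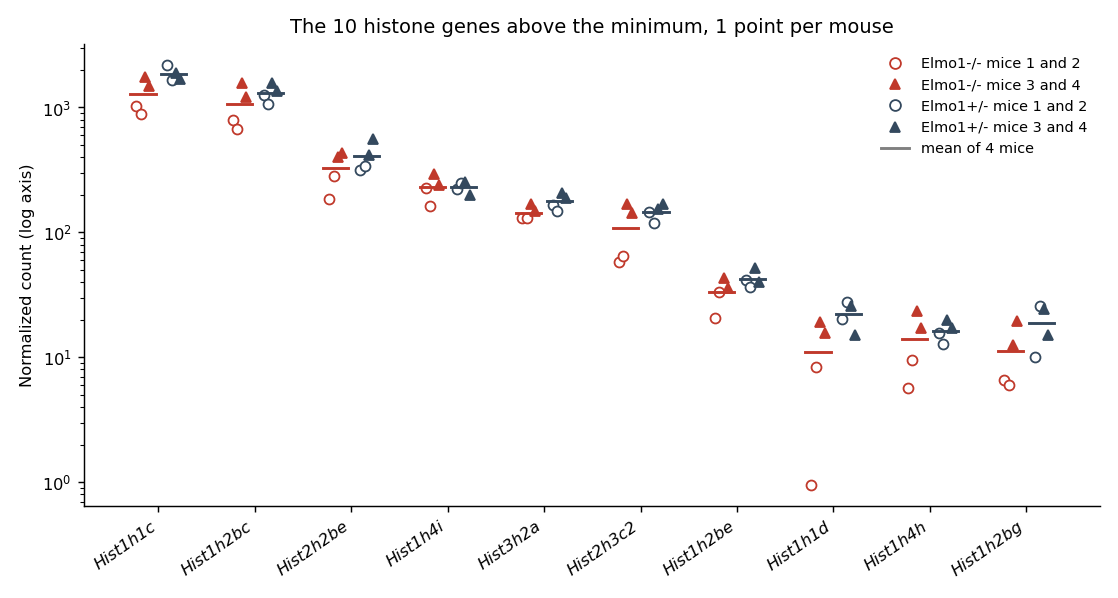
Normalized count (log axis) of the 10 tested histone genes in each mouse, with Elmo1-/- mice in red, Elmo1+/- mice in dark blue, open circles for mice 1 and 2, filled triangles for mice 3 and 4, and lines at the mean of 4 mice. In *Hist1h1c*, *Hist1h2bc* and *Hist2h3c2* the open red circles lie below all other points, and the red triangles lie among or near the blue points.

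Just under the minimum stood *Hist1h1e*, *Hist1h3d* and *Hist1h2ae*, with means of 9.36, 5.03 and 4.36 normalized counts. The linker histone gene *Hist1h1e* stood at 2.84, 4.79, 9.18 and 4.67 in the Elmo1-/- mice and at 18.4, 14.8, 10.7 and 9.52 in the Elmo1+/- mice, so the genotypes did not overlap, over 76 reads in all. Its log2 fold change was -1.22 (SE 0.38) when no minimum was set, and limma gave an adjusted p of 0.9999 over 24638 genes.

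The H4 gene *Hist1h4d* was the other gene with reads in every library whose genotypes did not overlap. It stood at 2.84, 1.20, 2.50 and 2.33 in the Elmo1-/- mice and at 5.52, 5.93, 4.57 and 4.76 in the Elmo1+/- mice, over 30 reads. *Hist1h2bk*, an H2B gene, had no read in the Elmo1-/- mice and 5 reads in all in the Elmo1+/- mice, which is too few for a fold. Of the 54 histone genes with a read, these 3 were lower in every Elmo1-/- mouse, or 5.56%, and none was higher, where 0.572% of all 24638 genes with a read were lower. *Hist1h1e* and *Hist1h2be* overlap, so their counts are not independent of each other, and *Hist1h2bk* shares 72.6% of its 75-base stretches with other genes.

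Summed over all 65 genes, the histone mRNA read was 2489, 2323, 4531 and 3834 normalized counts in the 4 Elmo1-/- mice, against 4471, 3805, 4708 and 4329 in the 4 Elmo1+/- mice. Elmo1-/- mice 1 and 2 were well below the other 6, which spanned a narrow range. *Hist1h1c* and *Hist1h2bc* made up 72.4% of this sum. The 5 other tested Hist1 genes summed to 260.2, 221, 391 and 329 in the Elmo1-/- mice and to 308, 351, 375 and 287 in the Elmo1+/- mice, with Elmo1-/- mice 1 and 2 lowest and mouse 3 highest, and a log2 ratio of the genotype means of -0.14, against -0.40 for all 7. The 55 genes under the minimum summed to 36.9, 52.7, 73.5 and 71.6 in the Elmo1-/- mice and to 100.2, 118, 109.6 and 73.3 in the Elmo1+/- mice, and the ranges overlapped only between Elmo1-/- mouse 3 and Elmo1+/- mouse 4. In bulk RNA, less of these mRNAs in each cell and fewer of the cells that hold them cannot be told apart.

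For most of the tested histone genes, the log2 fold change was lower in the set of libraries 1 and 2 than in that of 3 and 4. Among mice 1 and 2 of each genotype, all 10 histone genes were lower in Elmo1-/-, with log2 fold changes of -0.99 for *Hist1h1c*, -1.09 for *Hist2h3c2* and -0.66 for *Hist1h2bc*. Among mice 3 and 4, 8 of 10 were lower, and the same 3 genes stood at -0.14, -0.07 and -0.08. *Hist3h2a* differed from the others in that its values were -0.27 and -0.33, close to each other. The interaction of genotype and number set, fitted by limma after the data were seen, was 0.85 (SE 0.21) for *Hist1h1c*, 1.03 (SE 0.25) for *Hist2h3c2*, 0.58 (SE 0.21) for *Hist1h2bc* and 2.34 (SE 0.94) for *Hist1h1d*, each with an unadjusted p under 0.05. None passed after Benjamini-Hochberg adjustment over all genes (adjusted p = 0.9999 for each), and no gene of the table did. The share of all genes with an interaction under that unadjusted p is not given here. Nor are the shares of all genes lower in Elmo1-/- within each set, so these counts cannot be called particular to histone genes. With Elmo1-/- mice 1 and 2 left out, also chosen after their values were seen, 5 of the 10 genes were lower and 5 higher. That fit sets Elmo1-/- mice 3 and 4 against all 4 Elmo1+/- mice, so genotype is mixed with the number set. Taking out mice picked for low values also raises the Elmo1-/- means.

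With the mouse number as a block, since libraries of 1 number deviated together, 6 of the 10 histone genes had an unadjusted p under 0.05 in limma: *Hist1h1c*, *Hist1h1d*, *Hist1h2bc*, *Hist2h2be*, *Hist2h3c2* and *Hist3h2a*. Among all genes tested 2.75% did. The adjusted p stayed at 0.9999 for all 10. In 5 of the 10, *Hist1h1c*, *Hist1h2bc*, *Hist1h2be*, *Hist2h2be* and *Hist3h2a*, the Elmo1-/- mouse was below the Elmo1+/- mouse of its number in all 4 pairs, as in 4.8% of all genes tested. The exact tests above did not use the pairs, and a two-sided exact test over the 16 sign arrangements of 4 pairs cannot go below 0.125. The levels themselves differed between the number sets about as often as those of other genes: in 2 of the 10, *Hist2h2be* and *Hist1h4h*, mice 3 and 4 of both genotypes were all above mice 1 and 2, as in 18.1% of all genes.

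**Figure D3:**
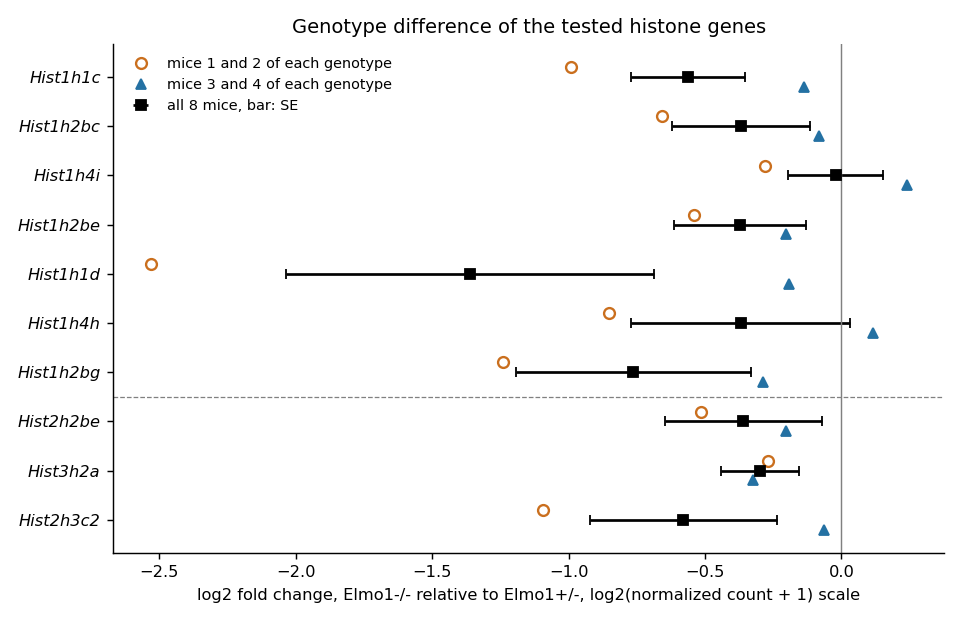
Log2 fold change of Elmo1-/- relative to Elmo1+/- mice on the log2(normalized count + 1) scale for the 10 tested histone genes, Hist1 genes above the dashed line and Hist2 and Hist3 genes below it. Black squares give all 8 mice with bars of 1 SE, open circles mice 1 and 2 of each genotype, and triangles mice 3 and 4. All black squares lie below 0, and in every gene but *Hist3h2a* the circle lies further from 0 on the lower side than the triangle.

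The Hist1 cluster lies on chromosome 13, where *Elmo1* also lies (chr13:20090596-20608353). Hist1 genes run from 21715763 to 23934851, at 1.11 to 3.33 Mb from the end of *Elmo1*, while Hist2 is on chromosome 3, Hist3 on chromosome 11 and Hist4 on chromosome 6. A targeted allele is inherited with its neighbourhood, so the genes near it can come from the strain in which it was made, and the strains are not given for these mice in the labels. Hist1 was therefore compared with the histone genes elsewhere.

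The tested Hist1 genes had a median log2 fold change of -0.37 (7 genes) and the tested Hist2 and Hist3 genes one of -0.36 (3 genes). The difference of these medians was -0.01. A related value in each mouse, the Hist1 median of centred log2 values minus that of the others, had an SD of 0.220 between mice of a genotype. That SD is the spread of single mice and not the error of the difference of medians. Among genes with at most 10% of their 75-base stretches shared the difference of medians was -0.60, from 2 Hist1 genes, *Hist1h1c* and *Hist1h1d*, and 1 other, *Hist2h2be*. The other 61 tested genes within 10 Mb of *Elmo1* had a median of 0.0030, with 30 lower and 31 higher in Elmo1-/-. Their values ran from -3.97 to 0.38, none was called, and 5 of the 61, or 8.2%, had an unadjusted p under 0.05, against 0.941% of all genes. The lowest, named after their values were seen, were *Gpr137b-ps* at -3.97 (SE 1.43) and *Sugct* at -2.04 (SE 0.52), so a median near 0 does not describe every gene near *Elmo1*. Of the tested Hist1 genes, the farthest from *Elmo1*, *Hist1h1c* at 3.13 Mb, had a log2 fold change of -0.56, and the nearest, *Hist1h4i* at 1.43 Mb, had -0.02. The 6 tested genes other than *Hist1h4i* lie together between 2.92 and 3.13 Mb, so these distances hold little more than 2 positions.

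The ratio of the summed Hist1 genes to the summed others lay between 3.74 and 5.61 in the Elmo1-/- mice and between 3.63 and 5.97 in the Elmo1+/- mice, and did not separate the genotypes. In libraries 1 and 2 the Hist1 median was -0.92 and that of the others -0.52, and in libraries 3 and 4 these were -0.14 and -0.20. The single-gene values behind these medians are few and noisy at the lower end, since *Hist1h1d*, *Hist1h2bg* and *Hist1h4h* had 121 to 134 reads each in all.

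**Figure D4:**
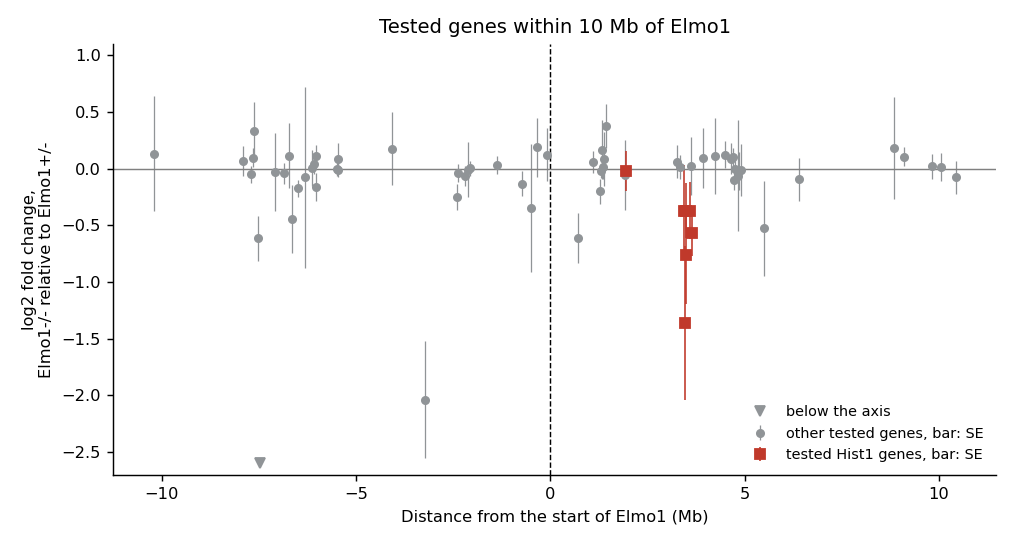
Log2 fold change of Elmo1-/- relative to Elmo1+/- mice, with bars of 1 SE, against the distance of each gene from the start of *Elmo1* (Mb) for tested genes within 10 Mb of it on chromosome 13. The 7 Hist1 genes are red squares and the 61 other genes are grey, drawn as circles except for 1 below the axis, drawn as a triangle. Of the Hist1 genes, 6 lie together at about the same distance with values from -1.36 to -0.37, and *Hist1h4i* lies nearer to *Elmo1* at -0.02.

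Genes that replace the clustered histones, or act on their mRNAs, had medians near 0. The 11 replacement and linker histone genes outside the clusters, most of which are made outside S phase too, were all tested, none was called, and their median log2 fold change was 0.01 with 4 lower and 7 higher. *H3f3b*, which encodes the variant H3.3, stood at 8003 to 9535 normalized counts, and *H1f0*, the linker histone of resting cells, at 1390.0 to 1624. Their sum was 20718, 19172, 18252 and 17861 in the Elmo1-/- mice and 19739, 20285, 16552 and 17954 in the Elmo1+/- mice, so that Elmo1-/- mice 1 and 2 were not the lowest.

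Of the 15 genes for histone mRNA processing and transcription, all were tested, none was called, and the median was 0.03, with 5 lower. *Slbp* stood at 1163, 1242, 1097 and 1084 in the Elmo1-/- mice and at 1059, 1049.0, 956 and 1054 in the Elmo1+/- mice, without overlap, a log2 fold change of 0.15 (SE 0.07, limma adjusted p = 0.9999). It was the 1 gene of the 15 without overlap, which held for 0.941% of all genes tested. *Npat*, whose product activates histone gene transcription, had a log2 fold change of -0.01 (SE 0.12).

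Of the 24 genes of S phase and mitosis, 22 were higher in Elmo1-/- and none was called. Their median log2 fold change was 0.11, and *Cdt1*, a replication licensing factor, was the single one with an unadjusted p under 0.05, at 0.18 (SE 0.08). Their sum was 68997, 69197, 53495 and 52736 in the Elmo1-/- mice and 62105, 62485, 43555 and 57187 in the Elmo1+/- mice. The 2 Elmo1-/- mice with the least clustered histone mRNA had the highest sums of these genes.

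The summed osteoclast genes were lowest in the same 2 mice, at 450909 and 527397 normalized counts in Elmo1-/- mice 1 and 2, against 1173010 and 1154860 in Elmo1-/- mice 3 and 4. In the Elmo1+/- mice they were 692445 and 589401 in mice 1 and 2 and 1091130 and 1029110 in mice 3 and 4. All 10 of these genes were tested, none was called, and 6 were lower in Elmo1-/-, with a median of -0.08. The share of differentiated osteoclasts in each culture was not measured here, and its part in the histone values was not tested. Elmo1+/- mice 1 and 2 also had low osteoclast sums, beside histone sums of 4471 and 3805, where mice 3 and 4 had 4708 and 4329.

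Marker sums of other cell types were spread otherwise over the mice. Of 6 macrophage genes 2 were lower, with a median of 0.02, and the sum in those mice was 412767 and 382038. Of 8 neutrophil genes 5 were lower, with a median of -0.17, and the sums were 18607 and 12303 in those mice against 17284 and 19058 in Elmo1+/- mice 1 and 2. Most of each of these sums was *S100a8*. Of 5 stromal genes 4 were tested, 1 of them lower, with sums of 536 to 1279 over all mice, and of 5 lymphocyte genes 1 was tested, with sums of 160.3 to 417. No gene of these lists was called.

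**Figure D5:**
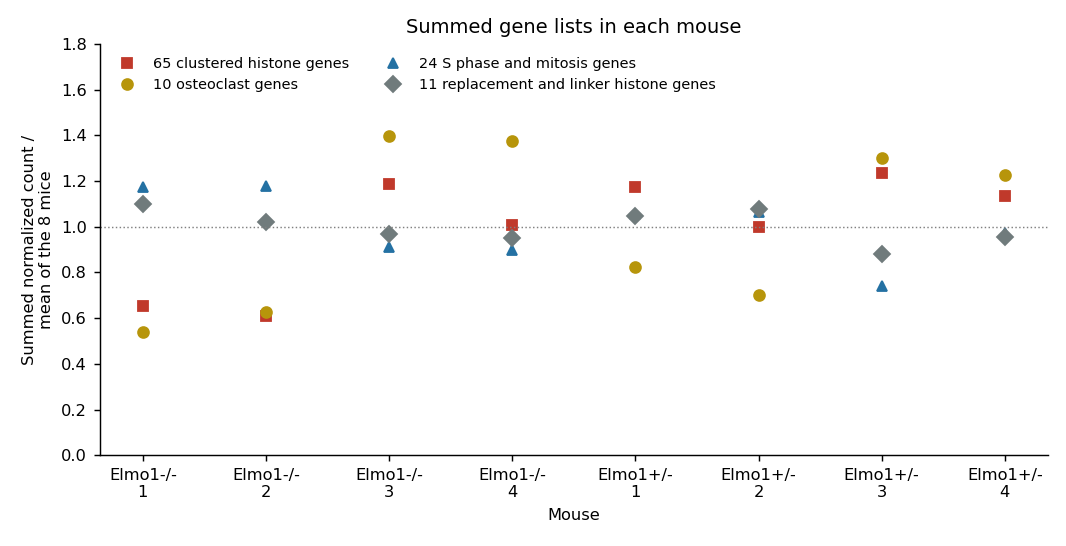
Summed normalized counts of 4 gene lists in each mouse, divided by the mean of the 8 mice. The clustered histone genes (red squares) and the osteoclast genes (yellow circles) are lowest in Elmo1-/- mice 1 and 2, the S phase and mitosis genes (blue triangles) are highest there, and the replacement and linker histones (grey diamonds) stay close to 1 in all mice.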

How the data were processed

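Cells, libraries and groups were as given above, with groups taken from the genotype labels. Per the labels, mRNA libraries were prepared with TruSeq and sequenced as 75 bp paired-end reads, and the submitters' processing notes name FastQC, STAR, featureCounts and DESeq2, without a version. Which genome build and annotation featureCounts used is not given in the sources used here. What the authors deposited is a normalized signal, in which the counts of a library were all divided by its DESeq2 size factor. Columns of the authors' own comparison (log2 fold change, its error, test statistic and p-values) were in the deposited table and were not used.

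Ensembl identifiers were looked up in GENCODE mouse release 21 for symbols and positions (46005 of 46517 matched). Whole reads were recovered by dividing by the smallest step (100% of values within 0.01 of a read). Identical stretches were counted over all annotated transcripts, and promoter sequence was that of RefSeq. The members and gene lists were chosen with earlier results of these data known.

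Genotypes were compared by limma 3.58.1 under R 4.3.3 (trend, robust) on log2(normalized count + 1), among genes whose value reached 10 in 4 libraries or more, with Benjamini-Hochberg adjustment, no block, and Elmo1-/- relative to Elmo1+/-. Fold changes are on this scale, where those of low genes depend on the pseudocount. Exact two-sided permutation tests used the 70 arrangements of the mice. Levels per kilobase used recovered reads and merged exons. Alternatives were edgeR 4.0.16 and DESeq2 1.42.0 on recovered reads, TMM scaling, other minimums and pseudocounts (0.5 and 8), each mouse left out, the mouse number as a block, the number set as a term, and each set alone. Same-numbered libraries deviated together from their genotype means (correlations over genes of 0.703, 0.156, 0.598 and 0.520, all over 0.1), so the numbers pair the libraries by the rule used. Differently numbered libraries within a set (1 with 2, 3 with 4) correlated at 0.691, 0.0259, 0.561 and 0.614, so much of this belongs to the set; the labels do not say what a number stands for. The text names every tested histone gene, those just under the minimum, and those whose genotypes do not overlap. The fits were tested on simulated data.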

Additional observations from a re-analysis of the deposited data

How the results depend on the processing

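No histone gene was called under any alternative run. Of 196 values of single histone genes under the alternatives, 184 kept their direction and 12 did not. Some of the 184 could not turn, since 4 settings leave each fold change as in the main fit. These are no minimum, a minimum of 50, the mouse number as a block and the number set as a term. *Hist1h4i* turned positive with edgeR (0.0076), with DESeq2 (0.0092), without Elmo1-/- mouse 2 (0.13), without Elmo1+/- mouse 2 (0.02) or 3 (0.03), with a range of -0.14 to 0.13 without 1 mouse, and in libraries 3 and 4 alone (0.24), where *Hist1h4h* turned too (0.11). Without both Elmo1-/- mice 1 and 2, chosen after the data were seen, *Hist1h4i* (0.21), *Hist1h4h* (0.29), *Hist1h2bc* (0.087), *Hist2h2be* (0.078) and *Hist2h3c2* (0.083) were above 0. That fit lacks the 2 lowest mice and keeps all 4 Elmo1+/- mice, so the number sets are unbalanced between the genotypes. Over all genes the count called was 2 with DESeq2 and in libraries 3 and 4 alone, and 1 or 2 without 1 mouse. The Hist1 median minus that of the others was -0.41 in libraries 1 and 2 alone, -0.60 among genes with at most 10% of stretches shared (2 genes against 1, an alternative added later) and -0.37 against other genes within 10 Mb, and lay between -0.17 and 0.08 without 1 mouse. The cause was not tested. Genes detected numbered 54, 17 and 6 under the rules of 1 read in 1 library, 1 read in every library and a minimum of 50, and 10 without any 1 mouse. With the replicate block, fold changes were those of the main fit (difference of medians -0.01), and it changed no adjusted call. Members that share no stretch at all gave no Hist1 value. Depth limits the 55 genes under the minimum, which took 39 to 119 reads per library in all, and the p-values measure the spread between mice of a genotype, with the 2 experiments unassigned.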
